A study of Mus musculus with 12 samples.

Results

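Expression of 3 genes of lipid sensing and of sterol and wax synthesis, *Trem2*, *Ch25h* and *Awat1*, was examined in airway macrophages (AMs) of *Scnn1b*-Tg and WT mice. The 3 genes were selected on their values in the comparison of *Scnn1b*-Tg with WT AMs in these same 12 libraries, so that their levels and fold changes in this comparison are a description and no test. They are 3 of the 19161 rows of the count table and 3 of the 1999 rows that could be given a gene name.

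TREM2 is a surface receptor of macrophages that binds lipids and lipoproteins and signals through the adaptor TYROBP. CH25H is an enzyme of the endoplasmic reticulum that hydroxylates the side chain of cholesterol, and its oxysterol product activates LXR receptors, restrains SREBP processing and is a precursor of the ligand of the chemotactic receptor GPR183. AWAT1 belongs to the DGAT2 family and joins fatty alcohols with acyl-CoA to wax esters, an activity known mainly from the sebaceous glands of the skin, whereas AMs are known for the uptake and breakdown of surfactant lipids.

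RNAseq was performed on AMs sorted as CD45+ Siglec-F+ CD11c+ cells from 6-week-old female mice on the C57BL/6 background without treatment. *Scnn1b*-Tg mice overexpress *Scnn1b*, a subunit of the epithelial sodium channel, under the CCSP promoter, which drives expression in airway epithelium, and WT littermates were the controls. Each genotype had 6 libraries, with 1 library per genotype in each of batches 1, 2 and 3 and 3 per genotype in batch 4. Total counts lay between 40259958 and 121813289 in *Scnn1b*-Tg libraries and between 45414386 and 110091439 in WT libraries, and no library of batch 4 exceeded 51832335. The methods describe paired-end and single-end libraries made with different kits, and which library had which kit was not given in the sources used here. The labels of batch 4 give different flow cells for WT and for *Scnn1b*-Tg libraries, so that flow cell and genotype cannot be told apart there.

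The AM label was checked against its markers. Of the 16 AM markers 8 had a name, and their summed level lay between 27815 and 65740 CPM (counts scaled to library size) in *Scnn1b*-Tg libraries and between 28408 and 39481 CPM in WT libraries. *Chil3*, a secreted chitinase-like protein of AMs, made up most of this sum with a mean of 28602 CPM. The other 7 markers summed to 5505 to 7522 CPM in *Scnn1b*-Tg and 6733 to 8340 CPM in WT libraries, and within each batch the *Scnn1b*-Tg libraries had the lower sum. Of the 8 markers, 2 had a log2 fold change of *Scnn1b*-Tg vs WT above 0, the median was −0.25, and 1 met the thresholds given below, the keratin gene *Krt79* (−0.65, with a standard error, SE, of 0.07, adjusted p = 0.0092), which was lower in *Scnn1b*-Tg AMs without overlap, also in 12 of 12 fits that omitted 1 library each. Named rows are genes with small p-values in the study's own table, so that these 8 do not stand for all 16 markers. Of the 1917 named rows tested 1056 had a log2 fold change above 0, with a median of 0.19. *Siglecf*, the gene of a sorting marker, had 353 ± 100 CPM (SD, n = 6) in *Scnn1b*-Tg and 441 ± 135 CPM (SD, n = 6) in WT AMs, with the lower mean in *Scnn1b*-Tg AMs in 4 of 4 batches and a log2 fold change of −0.31 (SE 0.06, adjusted p = 0.0838), below the threshold on its size. The part of these markers in the levels of the 3 genes was not tested. The gene of CD11c was not analysed here because its row has no name.

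*Trem2* (ENSMUSG00000023992) lies on the plus strand of mm10 chr17:48346401-48354147 and has 4 annotated transcripts, the longest with 5 exons. Its level in *Scnn1b*-Tg libraries was 46.4 CPM at the lowest, 84.6 CPM at the median and 161 CPM at the highest. In WT libraries it was 35.6 CPM at the lowest, 50.2 CPM at the median and 131 CPM at the highest. The ranges of the genotypes overlapped, because the WT libraries of batches 1 to 3, at 62.9 to 131 CPM, lay above the *Scnn1b*-Tg libraries of batch 4, at 46.4 to 60.7 CPM. Within each batch the *Scnn1b*-Tg libraries were the higher ones. *Trem2* had 161 against 131 CPM in batch 1, 126 against 93.1 CPM in batch 2 and 108 against 62.9 CPM in batch 3. In batch 4 the *Trem2* means were 52.8 and 36.9 CPM, and the lowest *Scnn1b*-Tg library lay above the highest WT library, which had 37.6 CPM. Over all batches *Trem2* had 92.2 ± 46.6 CPM (SD, n = 6) in *Scnn1b*-Tg and 66.3 ± 38.9 CPM (SD, n = 6) in WT AMs, and with batch as a covariate its log2 fold change was 0.51 (SE 0.09).

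*Ch25h* (ENSMUSG00000050370) is a gene of 1 exon on the minus strand of mm10 chr19:34473778-34475164. Its level in *Scnn1b*-Tg libraries was 130 CPM at the lowest, 169 CPM at the median and 245 CPM at the highest. In WT libraries it was 38.8 CPM at the lowest, 65.7 CPM at the median and 119.9 CPM at the highest. The genotypes did not overlap, although the pair of batch 2 was close to one another, at 152 CPM in the *Scnn1b*-Tg and 119.9 CPM in the WT library. *Ch25h* was 245 against 85.4 CPM in batch 1 and 130 against 66.8 CPM in batch 3, and the means in batch 4 were 169 and 55.4 CPM. Unlike *Trem2*, the *Scnn1b*-Tg libraries of batch 4, at 131 to 189 CPM, were in the same range as those of batches 1 to 3, at 130 to 245 CPM. The WT libraries of batch 4, at 38.8 to 64.6 CPM, all lay below those of batches 1 to 3, at 66.8 to 119.9 CPM, as for *Trem2*. Over all batches *Ch25h* had 172 ± 43.9 CPM (SD, n = 6) in *Scnn1b*-Tg and 73.1 ± 27.3 CPM (SD, n = 6) in WT AMs, and the log2 fold change came to 1.28 (SE 0.21). The lncRNA gene Gm26902 on the opposite strand shares 159 exon bases with *Ch25h*, and because the counts were made without strand, the reads of the 2 genes in these bases cannot be told apart.

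*Awat1* (ENSMUSG00000015665) has 7 exons on the plus strand of mm10 chrX:100572251-100578205. Its level in *Scnn1b*-Tg libraries was 5.37 CPM at the lowest, 30.9 CPM at the median and 92.3 CPM at the highest. In WT libraries it was 0 CPM at the lowest, 1.28 CPM at the median and 4.52 CPM at the highest. The genotypes did not overlap, and both were higher in batches 1 to 3 than in batch 4. *Awat1* reached 92.3, 50.2 and 51.3 CPM in the *Scnn1b*-Tg libraries of batches 1, 2 and 3, against 4.52, 2.70 and 1.60 CPM in their WT partners. In batch 4 the *Scnn1b*-Tg libraries had 5.37 to 11.7 CPM and the WT libraries 0 to 0.95 CPM, so that the WT library of batch 1, at 4.52 CPM, came close to the lowest *Scnn1b*-Tg library of batch 4. The value of 0 belongs to WT replicate 5, whose depth allows up to 0.053 CPM at a count of 0, a limit that covers counting error only. In counts, *Awat1* had between 257 and 9138 in *Scnn1b*-Tg libraries and between 0 and 309 in WT libraries. The ratio of mean CPM was 20.4 in batch 1, 18.6 in batch 2, 32.0 in batch 3 and 12.8 in batch 4. Over all batches *Awat1* had 36.1 ± 34.8 CPM (SD, n = 6) in *Scnn1b*-Tg and 1.76 ± 1.62 CPM (SD, n = 6) in WT AMs, and the log2 fold change came to 4.13 (SE 0.61). In these bulk libraries, a larger share of cells that express a gene and more RNA of it per cell cannot be told apart, which holds for all 3 genes.

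**Figure D1:**
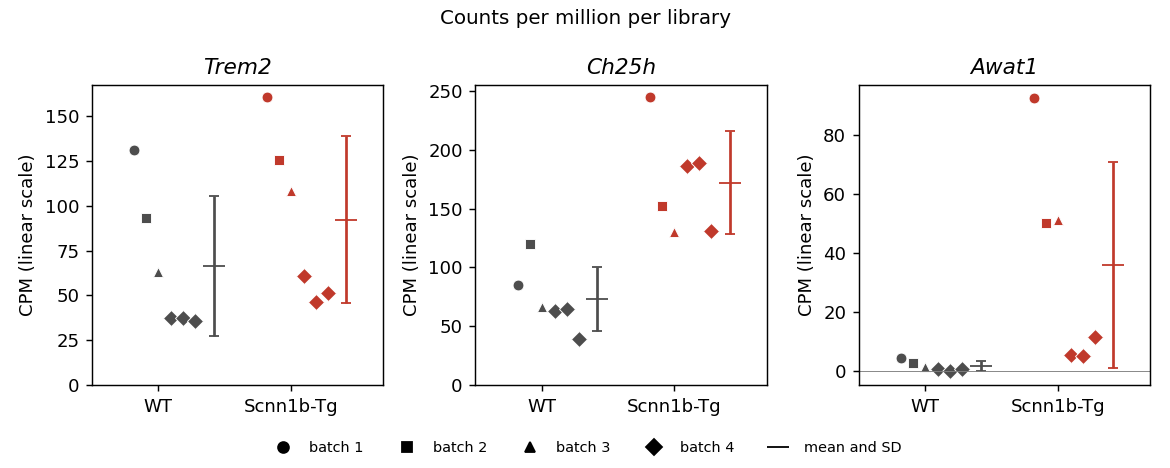
CPM (linear vertical axis) of *Trem2*, *Ch25h* and *Awat1* in the 6 WT and 6 *Scnn1b*-Tg libraries, with the shape of a point giving its batch and the bar the mean and SD of the 6 libraries. *Ch25h* and *Awat1* show no overlap of the genotypes, and *Trem2* overlaps between batches but not within them.

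All 3 genes met the thresholds of the genotype comparison, which were 0.1 for the adjusted p and 0.5 for the absolute log2 fold change. Over the 14255 rows that passed the expression filter 70 did, or 0.491%, and nothing is read from the 3 of 3, since the genes were selected on this contrast. The 70 depend on the libraries and the test, with 26 rows without *Scnn1b*-Tg replicate 1, 29 to 54 without 1 of the other libraries, 248 with DESeq2 and 0 by edgeR with no batch covariate (270 at an unadjusted p under 0.05). All 70 called rows had a name, 58 of them (0.407% of the rows tested) with a higher and 12 with a lower level in *Scnn1b*-Tg AMs. For 2 of the 3 genes every *Scnn1b*-Tg library lay above every WT library, as for 0.231% of the rows tested. In all 4 batches the *Scnn1b*-Tg mean was the higher one for the 3 genes, as for 9.36% of the rows tested. *Trem2* stood close to the threshold of 0.5, and when 1 library at a time was omitted, it met both thresholds in 4 of 12 fits, *Ch25h* in 6 and *Awat1* in 10. The 12 fits are not 12 separate removals. With batch as covariate, omitting either library of batch 1, 2 or 3 leaves its batch partner without weight on the genotype effect.

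*Scnn1b*-Tg replicate 1, the library of batch 1, had the highest level of all 12 libraries for each of the 3 genes, as for 11.8% of the rows tested. Without it the log2 fold change was 0.55 for *Trem2*, 1.22 for *Ch25h* and 4.07 for *Awat1*, and *Ch25h* and *Awat1* no longer met the threshold on the adjusted p. This fit in effect omits the pair of batch 1. Without WT replicate 1, the partner, the log2 fold changes were 0.55, 1.22 and 4.08, and *Ch25h* missed that threshold too. The effect of *Scnn1b*-Tg replicate 1 alone cannot be told from that of the pair.

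The genotype effect was also compared between batches 1 to 3 and batch 4. This used the same 12 libraries, and since a difference between batches adds to the spread in the contrast that selected the genes, the selection favours genes where it is small, so that it is given as a description. For *Trem2*, the estimates were 0.51 in batches 1 to 3 alone and 0.51 in batch 4 alone on the log2 scale, and the fitted difference was 0.01 (SE 0.18, adjusted p = 0.998, edgeR's quasi-likelihood test). *Ch25h* had 0.94 within batches 1 to 3 and 1.60 within batch 4, a difference of 0.66 (SE 0.37, adjusted p = 0.758). *Awat1* had 4.52 and 3.69, a difference of −0.83 (SE 1.12, adjusted p = 0.917). The adjusted p was under 0.1 for 0 of the 3 genes and for 19 of the 14255 rows, or 0.133%, with 1064 rows at an unadjusted p under 0.05, and nothing is read from the 0 of 3. With this SE, the difference for *Awat1* is known only roughly, and it ranged from −1.42 to −0.32 without 1 library and turned to 0.85 with limma-voom.

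Levels of different genes were compared as CPM per kilobase of exon. In WT AMs *Ch25h* had 52.7 ± 19.7 (SD, n = 6), *Trem2* 13.4 ± 7.87 and *Awat1* 1.27 ± 1.17 CPM per kilobase, and this order was the same in 6 of 6 WT libraries. In *Scnn1b*-Tg AMs *Ch25h* had 124 ± 31.6 (SD, n = 6), *Awat1* 26.0 ± 25.0 and *Trem2* 18.6 ± 9.43 CPM per kilobase. *Ch25h* was the highest of the 3 in 6 of 6 *Scnn1b*-Tg libraries, whereas *Awat1* and *Trem2* did not differ beyond their spread there. *Awat1* was above *Trem2* per kilobase in the 3 *Scnn1b*-Tg libraries of batches 1 to 3 and below it in the 3 of batch 4. By mean CPM in WT AMs, *Ch25h* lay above 81.7%, *Trem2* above 79.8% and *Awat1* above 21.2% of the rows tested. By mean CPM in *Scnn1b*-Tg AMs, the shares were 92.8% for *Ch25h*, 85.6% for *Trem2* and 66.5% for *Awat1*. For *Awat1* this mean is over libraries at 50.2 to 92.3 CPM in batches 1 to 3 and 5.37 to 11.7 CPM in batch 4. Its share holds for the mean over all batches only.

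The patterns of the 3 genes over the 12 libraries were compared after subtraction of the batch means, as a description over 12 libraries that share batches and genotypes. Pearson's r of log2 CPM was 0.83 between *Trem2* and *Ch25h*, 0.80 between *Trem2* and *Awat1* and 0.72 between *Ch25h* and *Awat1*. After the genotype means were subtracted too, r was 0.04, −0.04 and −0.36. The genotype difference removed here is what the 3 genes were selected on. In WT replicate 5 *Awat1* had a count of 0. Without this library, before the genotype means were subtracted, r of *Awat1* was 0.89 with *Trem2* and 0.78 with *Ch25h* over 11 libraries. No r of *Awat1* after that subtraction is given here without this library. Among the other 1916 named rows tested, the genes most like *Trem2* were *Mreg* (r = 0.97, and 0.79 without the genotype means), *Col7a1* (0.96 and 0.89) and *Cd9-ps* (0.96 and 0.81). Those most like *Ch25h* were *H2-DMb1* (0.97 and 0.83), a chaperone subunit of MHC class II loading, *Mkrn2* (0.95 and 0.85) and *Mfsd11* (0.95 and 0.74). Those most like *Awat1* were *Tent4a* (0.96 and 0.89), *Naglu* (0.95 and 0.93), a lysosomal glycosidase, and the chemokine *Ccl17* (0.95 and 0.74), and without WT replicate 5, where *Awat1* had a count of 0, r with these was 0.93, 0.91 and 0.92 over 11 libraries. *Col7a1* was low, at 0.53 CPM in *Scnn1b*-Tg and 0.23 CPM in WT AMs on average.

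Genes around the 3 members were looked up in the annotation of the same build. *Ch25h* lies 17153 bp from *Lipa*, the lysosomal acid lipase that releases cholesterol from its esters, and 146005 bp from the death receptor gene *Fas*. *Lipa* had 1002 ± 344 CPM in *Scnn1b*-Tg and 696 ± 260 CPM in WT AMs (SD, n = 6 each), and the log2 fold change came to 0.53 (SE 0.11, adjusted p = 0.102), just outside the threshold. *Fas* had an estimated log2 fold change of 0.29 (adjusted p = 0.563). The nearest genes of *Trem2*, B430306N03Rik at 19376 bp and *Treml1* at 5768 bp, and those of *Awat1*, *Dgat2l6* at 26106 bp, the pseudogene Gm6175 at 6803 bp and *P2ry4* at 11948 bp, have rows without a name and were not analysed here.

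The other genes of the pathways were taken from 8 lists. The named rows are genes with small p-values in the study's own table, so that lists could be read only against the other named rows, whose median log2 fold change was 0.19 over 1917 rows tested, against 0.00 over all 14255 rows. Of 17 genes of the TREM2 receptor complex and its signalling 5 had a name, and *Trem2* was the 1 that met the thresholds, while the median of the other 4 was 0.17. The adaptor *Tyrobp*, at 1091 ± 435 CPM in *Scnn1b*-Tg and 944 ± 428 CPM in WT AMs (SD, n = 6 each), had an estimated log2 fold change of 0.24 (adjusted p = 0.275). The phosphatase *Inpp5d* had 0.14, the adaptor *Card9* 0.19 and the kinase subunit *Pik3r1* −0.85 (adjusted p = 0.277). Of 9 other receptors of the TREM and CD300 families 1 had a name, *Cd300a*, and the log2 fold change came to 0.60 (adjusted p = 0.206).

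Among 21 genes known from lipid-associated macrophages, 11 had a name, 4 rose and 0 fell, and the median log2 fold change was 0.39. Of the 1917 named rows tested 58 rose (3.03%) and 12 fell (0.626%), and nothing particular to the list is read from its count. The 4 were *Cd63*, a tetraspanin of late endosomes (log2 fold change 1.06, SE 0.07, adjusted p = 8.5e-04), *Cd68*, a lysosomal glycoprotein (0.51, SE 0.08, adjusted p = 0.0373), the fatty acid binding protein *Fabp5* (0.59, SE 0.10, adjusted p = 0.0494) and *Gpnmb* (0.55, SE 0.10, adjusted p = 0.0787). *Cd68* had 772 ± 88.1 CPM in *Scnn1b*-Tg and 539.6 ± 47.9 CPM in WT AMs (SD, n = 6 each), without overlap. When 1 library at a time was omitted, *Cd63* met both thresholds in 12 of 12 fits (1.02 to 1.11), *Cd68* in all except those without *Scnn1b*-Tg replicate 1 or 4 or WT replicate 1 or 5 (0.43 to 0.55 over the 12 fits), *Fabp5* in 2 fits, without *Scnn1b*-Tg replicate 5 or 6 (0.52 to 0.65), and *Gpnmb* in 1, without *Scnn1b*-Tg replicate 5 (0.47 to 0.61). *Spp1* had a log2 fold change of 0.33, *Ctsd* 0.29, *Ctsb* 0.26 and *Ctsl* 0.21, and these did not meet the thresholds. The 3 named genes of the list with lower mean CPM, added after their values were seen, did not either, with 0.39 for *Fabp4*, 1.47 for *Csf1* and −0.56 for *Apoc1*, the 1 of the 11 below 0, whose mean was lower in *Scnn1b*-Tg AMs in 4 of 4 batches.

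For the oxysterol and LXR pathway, 7 of 22 genes had a name, *Ch25h* was the 1 that met the thresholds, and the median of the other 6 was 0.33. *Cyp27a1*, a mitochondrial sterol hydroxylase, had 6.96 ± 1.2 CPM in *Scnn1b*-Tg and 3.31 ± 0.94 CPM in WT AMs (SD, n = 6 each) without overlap, and the log2 fold change came to 1.08 (SE 0.23, adjusted p = 0.119). The oxysterol receptor *Gpr183* was near 0 in both, at 0.81 and 0.33 CPM, had a count of 0 in 4 of 12 libraries and a log2 fold change of 2.44 (SE 1.53, adjusted p = 0.69). The cholesterol exporter *Abca1*, a target of LXR, had −0.20, the desaturase *Scd1* 0.43, the LXR gene *Nr1h2* 0.22 and the oxysterol binding protein gene *Osbpl8* −0.34. Of 26 genes of sterol synthesis and the SREBP2 pathway 4 had a name and 0 met the thresholds, with a log2 fold change of 0.42 for *Mvd*, 0.28 for *Fdft1*, 0.57 for *Sc5d* and 0.36 for *Dhcr7*.

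Of 40 genes of wax synthesis, neutral lipids and lipid droplets 7 had a name, and *Awat1* was the 1 that met the thresholds, while the median of the other 6 was −0.30. The triglyceride synthase *Dgat2*, of the same family as *Awat1*, had 39.3 ± 16.1 CPM in *Scnn1b*-Tg and 48.1 ± 21.9 CPM in WT AMs (SD, n = 6 each), and the log2 fold change came to −0.26 (adjusted p = 0.326). *Cidec*, a lipid droplet protein, had an estimated log2 fold change of −0.36 (SE 0.05, adjusted p = 0.0311), below the threshold on the size of the change. *Plin1* had −1.19 (adjusted p = 0.323) and *G0s2* −0.33, and *Elovl1* had 0.34 and *Pnpla2* 0.20. Of 16 genes of surfactant lipid uptake and lysosomal lipid handling 3 had a name and 0 met the thresholds, with 0.53 for *Lipa*, 0.46 for the scavenger receptor *Msr1* and −0.41 for *Fabp1*. Of 22 genes of fatty acid oxidation 4 had a name and 0 met the thresholds, with 0.74 for *Pdk4*, 0.20 for *Acaa2* and 0.17 for *Acads*.

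**Figure D2:**
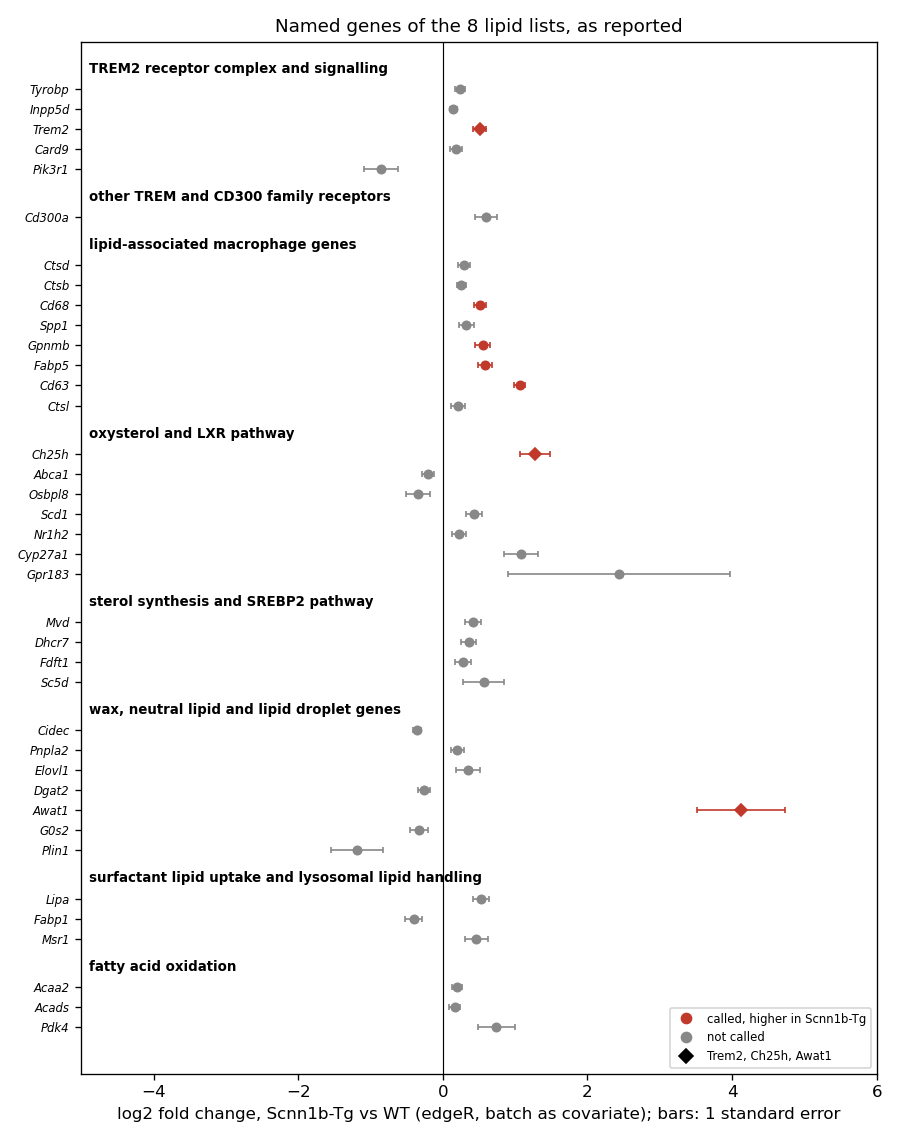
Log2 fold change of *Scnn1b*-Tg vs WT AMs (horizontal axis) with 1 SE for the named genes of the 8 lipid lists that are reported here, at most 8 per list, in order of mean CPM. *Awat1* lies at 4.13 and *Ch25h* at 1.28, *Gpr183* at 2.44 with a wide SE, *Cyp27a1* at 1.08 and *Cd63* at 1.06, and *Trem2* at 0.51 lies near *Cd68*, *Fabp5* and *Gpnmb*.

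Markers of other cell types were given by their summed level, and their part in the values of the 3 genes was not tested. Here too the named markers are genes with small p-values in the study's own table and do not stand for their whole lists. Of 8 dendritic cell markers 3 had a name, with *Mgl2* the most abundant, and their sum was higher in *Scnn1b*-Tg than in WT libraries in each batch, as were the 3 genes. Most of it was *Mgl2* and *Cd209a*, which macrophages can express too, so that the sum is no measure of dendritic cells alone. It was 85.6 against 7.59 CPM in batch 1, where the 3 genes were highest in the *Scnn1b*-Tg library, 7.52 against 1.60 CPM in batch 2, 2.88 against 1.25 CPM in batch 3 and 0.81 to 5.42 against 0.30 to 0.43 CPM in batch 4. The medians were 4.29 CPM in *Scnn1b*-Tg and 0.84 CPM in WT libraries, and of the 2 markers that passed the filter, *Mgl2* had a log2 fold change of 2.29 (adjusted p = 0.412) and *Cd209a* 3.33 (adjusted p = 0.127), with 0 past the thresholds. Of 19 epithelial markers 3 had a name, with *Cdh1* the most abundant, and 1 of the 3 is *Scnn1b*, the gene that the transgene overexpresses. Without it, the sum of *Cdh1* and *Foxj1* was 162 against 125 CPM in batch 1, 144 against 121 CPM in batch 2, 99.2 against 86.9 CPM in batch 3 and 106 to 120 against 102 to 113 CPM in batch 4. Nearly all of this sum was *Cdh1*, since *Foxj1* had 0.21 to 2.29 CPM. Which cells the *Cdh1* RNA came from cannot be told in bulk libraries, so that the sum is no measure of epithelial cells alone. *Cdh1* had the higher mean in *Scnn1b*-Tg libraries in 4 of 4 batches and a log2 fold change of 0.18 (adjusted p = 0.423). *Scnn1b* itself had 71.7 CPM in *Scnn1b*-Tg replicate 1, 53.8 CPM in replicate 2 and 1.16 to 4.39 CPM in replicates 3 to 6. In WT libraries it had 11.6 CPM in batch 1, 12.7 CPM in batch 2 and 0 to 1.48 CPM in batches 3 and 4. Its log2 fold change was 2.96 (SE 0.82, adjusted p = 0.276) and did not meet the thresholds.

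Neutrophil markers had 4 of 12 named, with *Mmp8* the most abundant, and summed to 104 to 163 CPM in *Scnn1b*-Tg and 73.6 to 118 CPM in WT libraries, with the higher mean in *Scnn1b*-Tg libraries in each batch. *Mmp8*, a collagenase of neutrophil granules, met the thresholds as the 3 genes did, with 71.4 ± 12.9 CPM in *Scnn1b*-Tg and 43.0 ± 4.82 CPM in WT AMs (SD, n = 6 each), no overlap and a log2 fold change of 0.73 (SE 0.11, adjusted p = 0.0271), and it missed them in 1 of 12 fits, without *Scnn1b*-Tg replicate 1. *Cxcr2* had a log2 fold change of 1.01, *Mmp9* 4.64 at a mean below 1 CPM in both genotypes, and *Csf3r* −0.35, and these did not meet the thresholds. Interstitial macrophage markers had 4 of 11 named, of which *Csf1r*, also expressed by AMs, made up most of the sum. This was higher in *Scnn1b*-Tg libraries in each batch, at 214 against 121 CPM in batch 1, 173 against 167 CPM in batch 2, 165 against 146 CPM in batch 3 and 289 to 335 against 267 to 284 CPM in batch 4, while *Cd163* was at 0 in 7 of 12 libraries. Monocyte markers had 3 of 11 named, with *Ace* the most abundant, and their sum was 54.8 against 29.6 CPM in batch 1, 24.7 against 24.3 CPM in batch 2 and 24.8 against 23.6 CPM in batch 3, with means of 51.6 and 45.5 CPM and overlap in batch 4, so that its mean too was higher in *Scnn1b*-Tg libraries in each batch. Of these markers *Vcan* had the lower level in *Scnn1b*-Tg AMs in 4 of 4 batches, at 0.55 CPM in *Scnn1b*-Tg and 1.72 CPM in WT AMs on average (log2 fold change −1.61, adjusted p = 0.328). The 2 of 11 named markers of T and NK cells, *Gzma* and *Cd8a*, both had a log2 fold change below 0 without meeting the thresholds, and their sum was 8.18 against 19.6 CPM in batch 1, 7.92 against 11.8 CPM in batch 2, 2.45 against 0.77 CPM in batch 3 and 0 against 0.25 to 0.56 CPM in batch 4. The 1 of 7 named B cell marker, *Ighm*, was higher in *Scnn1b*-Tg libraries in batches 1 and 2, at 14.0 against 8.35 and 23.0 against 5.53 CPM, lower in batch 3, at 1.31 against 2.75 CPM, and overlapped in batch 4. The 1 of 8 named marker of fibroblasts and endothelium, *Col1a2*, had 5.46 against 8.78 CPM in batch 1 and 3.41 against 6.65 CPM in batch 2, and did not exceed 0.41 CPM in batches 3 and 4. None of the 7 eosinophil markers had a name.

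The sequence before the start of each gene is shown because the 3 genes were higher together in *Scnn1b*-Tg AMs. All 3 genes matched an entry of the RefSeq promoter table (GRCm38.p6), which runs from 250 bases before to 50 after the start, and the 250 bases before it are printed for chr17:48346151-48346400 (plus strand), chr19:34475149-34475398 (minus strand) and chrX:100571997-100572246 (plus strand). The start is that of RefSeq, and motif positions count from it. For *Ch25h* and *Awat1* it differs from the GENCODE gene start given above, so that the last printed bases of *Ch25h* lie within that gene. Capitals mark matches to the motifs described next.
Trem2: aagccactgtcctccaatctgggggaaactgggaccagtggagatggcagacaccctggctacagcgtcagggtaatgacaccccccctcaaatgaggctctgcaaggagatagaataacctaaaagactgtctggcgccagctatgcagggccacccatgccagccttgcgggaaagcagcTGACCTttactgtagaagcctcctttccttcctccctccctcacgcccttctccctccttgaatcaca
Ch25h: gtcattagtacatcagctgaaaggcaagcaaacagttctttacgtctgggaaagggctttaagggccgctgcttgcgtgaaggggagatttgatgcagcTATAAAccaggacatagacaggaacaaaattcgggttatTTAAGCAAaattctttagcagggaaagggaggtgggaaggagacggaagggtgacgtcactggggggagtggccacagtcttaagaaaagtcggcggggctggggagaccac
Awat1: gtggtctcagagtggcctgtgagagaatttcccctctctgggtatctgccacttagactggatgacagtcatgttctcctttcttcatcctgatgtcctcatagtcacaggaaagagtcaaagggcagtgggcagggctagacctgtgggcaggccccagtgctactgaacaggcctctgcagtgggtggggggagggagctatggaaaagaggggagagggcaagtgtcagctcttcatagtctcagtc

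Over the 300 bases, both strands were searched for AP-1 TGACTCA (in 5.2% of 32851 promoters), PU.1 GAGGAAGT (3.2%), C/EBP TTGCNNAA (10.8%), NF-kB GGGANTTTC (1.1%), the TATA box TATAAA (13.6%), the nuclear receptor half-site AGGTCA (16.3%), SREBP TCACCCCAC (0.6%) and MITF or TFEB TCACGTGA (1.0%). The *Trem2* promoter held the half-site as TGACCT on the opposite strand and a C/EBP match, TTGCTCAA, after the start and outside the printed bases. The *Ch25h* promoter held TATAAA at −151 and a C/EBP match, TTAAGCAA on the opposite strand, at −112. The *Awat1* promoter held none of these letters. The 3 promoters shared little in CpG content, with 5 CpG in *Trem2*, 10 in *Ch25h* and 1 in *Awat1* against a median of 7 over all promoters. These matches are a description of letters and say nothing of binding.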

How the data were processed

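RNAseq counts of 6 *Scnn1b*-Tg and 6 WT libraries were used. The deposited counts were made by the authors with HISAT2 on mm10 without strand and StringTie's prepDE script with GENCODE annotation, as whole numbers derived from coverage, without normalization. The rows carry no names. Each of 1999 genes was paired with 1 row through the mean normalized count in the study's supplementary table, used for identity only, as a weighted sum of the 12 counts within a relative difference of 1e-12 (the next row differed by at least 2.9e-07, and 999 of 999 held-out genes received the same row).

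Rows were filtered with filterByExpr by genotype, scaled with TMM factors and tested with the quasi-likelihood test of edgeR 4.0.16 (R 4.3.3), with batch as covariate and Benjamini-Hochberg adjustment over all rows tested. The procedures were tested on simulated data. Batches pair the libraries by the labels (correlation of deviations 0.25, 0.27 and 0.49 in batches 1 to 3), and numbers within batch 4 do not (−0.07, −0.01 and −0.02). CPM used the same factors. Positions and lengths came from GENCODE annotation of the same build.

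The 3 genes and all lists were chosen with earlier results of these data known. Genes named are the 3 genes, list genes with a named row (at most 8 per lipid list, by mean CPM), the 3 most alike rows, neighbours, *Scnn1b* and markers. Alternatives covered normalization, test (DESeq2 1.42.0, limma 3.58.1), filter, block and libraries. The values of 1 list gene are not reported here.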

Additional observations from a re-analysis of the deposited data

Results flagged for a closer look

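A single library stood apart in 3 of 26 groups of 6 libraries, and about 1 in 20 groups would do so by chance. All 3 were libraries of batch 1. The summed level of the AM markers was 65740 CPM in *Scnn1b*-Tg replicate 1, and the next *Scnn1b*-Tg library had 39244 CPM, with *Chil3* making up most of these sums. The summed level of the dendritic cell markers was 85.6 CPM in *Scnn1b*-Tg replicate 1 and 7.59 CPM in WT replicate 1. None of the groups of *Trem2*, *Ch25h*, *Awat1* and *Scnn1b* themselves had such a library. The rule looks for 1 library apart from the others and cannot flag 2 that are high together. *Scnn1b* was such a case, with 71.7 and 53.8 CPM in *Scnn1b*-Tg replicates 1 and 2. The part of these markers in the levels of the 3 genes was not tested.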

How the results depend on the processing

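The log2 fold changes of *Trem2*, *Ch25h* and *Awat1* stayed above 0 under all alternatives run, and it was the thresholds that were lost or kept. Without 1 library at a time they ranged from 0.45 to 0.55, from 1.15 to 1.45 and from 3.91 to 4.39. For a library of batches 1 to 3 such a fit in effect omits the pair of its batch. *Awat1* missed the thresholds without *Scnn1b*-Tg replicate 1 or 3, *Ch25h* without *Scnn1b*-Tg replicate 1, 3 or 4 or WT replicate 1, 4 or 5, and *Trem2* in all of the 12 fits except those without *Scnn1b*-Tg replicate 1, 5 or 6 or WT replicate 1. With no replicate block they were 0.48, 1.24 and 4.35, none of them past the thresholds, and 0 rows were called (270 at an unadjusted p under 0.05). With a replicate block of 6 pairs *Trem2* (0.51) was lost and 29 rows were called, against 70, although numbers within batch 4 do not pair libraries. *Trem2* was also lost with limma-voom (0.49, 119 rows called) and with batches 1 to 3 against batch 4 as the only covariate (0.49, 39 rows called). Within batches 1 to 3 only, *Trem2* (0.51), *Ch25h* (0.94) and *Awat1* (4.52) were all lost and 0 rows were called by edgeR (994 at an unadjusted p under 0.05). Within batch 4 only, *Trem2* (0.51) and *Awat1* (3.69) were lost. DESeq2 called 248 rows. Leaving out 1 library gave 26 to 54 calls, the fewest without *Scnn1b*-Tg replicate 1. The filter by the design matrix, chosen after seeing the data, lost none of the 3.

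The difference between batches was not past the threshold for any of the 3 genes under any alternative run. Without 1 library it ranged from −0.10 to 0.17 for *Trem2*, below 0 in 4 fits, from 0.39 to 0.96 for *Ch25h* and from −1.42 (without WT replicate 5) to −0.32 for *Awat1*, and with limma-voom that of *Awat1* reversed to 0.85. Rows called numbered 237 with DESeq2, 11 with no filter and 7 to 58 without 1 library, against 19. The causes were not tested. The length of the longest transcript equals that of all exons for *Ch25h* and *Awat1*, and for *Trem2* it gave 13.9 in place of 13.4 CPM per kilobase in WT and, chosen after seeing the data, 19.3 in place of 18.6 in *Scnn1b*-Tg AMs, within 1 SD. Of the 3 genes *Awat1* had the lowest counts, at 0 to 309 in WT libraries, and the part of depth in this was not tested.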
